A study of Homo sapiens with 43 samples.

Results

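The 5 peak lists compared here came from SUDHL5, an established diffuse large B-cell lymphoma line, cultured for 4 h in 0.1% DMSO without any drug. Of these, 2 lists came from chromatin precipitated with ab5131, an antibody against RNA polymerase II phosphorylated at serine 5 (Ser5P), and 3 from chromatin precipitated with 8WG16, an antibody against RNA polymerase II (total Pol II). They were 5 of the 33 peak lists and 5 of the 43 samples of a ChIP-seq series on SUDHL5 and KARPAS422 cells given DMSO or the compound CDK-TCIP1, and were chosen by cell line, antibody, treatment and time alone. All 5 shared the line, the vehicle and the time. Other SUDHL5 lists were used only to look at the regions defined from these 5: Pol II after 30 nM CDK-TCIP1 for 2 h or 4 h, Ser2P after DMSO for 4 h, and CDK9 after DMSO for 2 h. The labels do not state whether replicates came from separate cultures. The tests therefore measure the spread between these lists, which may be technical.

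The largest subunit of RNA polymerase II carries a tail of heptad repeats whose serines are phosphorylated and dephosphorylated as the enzyme passes from the promoter into the gene. Serine 5 is phosphorylated by the kinase of TFIIH around initiation, and Ser5P is known for its high level near gene starts, where polymerase pauses. Serine 2 is phosphorylated later, largely under CDK9, CDK12 and CDK13, and Ser2P is known for its rise toward gene 3′ ends. The 8WG16 antibody was raised against the tail repeats and is known to prefer the unphosphorylated form.

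For orientation, 5 promoters show the kinds of gene described in the values that follow. POLR2A (chr17:7484116-7484415, plus strand) encodes the largest polymerase subunit and had the best mean rank over all 5 lists. HEXIM1 (chr17:45148225-45148524, plus strand) encodes an inhibitor of the CDK9 kinase complex and had peaks in all 5 lists. H2AX (chr11:119095416-119095715, minus strand), the histone variant phosphorylated at DNA breaks, led the gene starts that had Ser5P peaks and no Pol II peak. BTBD10 (chr11:13463173-13463472, minus strand), which encodes a BTB domain protein, had Pol II peaks and no Ser5P peak. KDM4A (chr1:43649899-43650198, plus strand), a histone demethylase, stood near the top of the Pol II lists and near the bottom of the Ser5P lists among the regions that all 5 held. Sequences are from RefSeq GRCh38.p14, from 250 bases before to 50 after the listed start, 5′ to 3′ on the gene's strand. Capitals mark motif matches on either strand. The TATA box was searched as TATAAA. The CCAAT box was searched by the letters of its name. The GC box was searched as GGGCGG.
POLR2A: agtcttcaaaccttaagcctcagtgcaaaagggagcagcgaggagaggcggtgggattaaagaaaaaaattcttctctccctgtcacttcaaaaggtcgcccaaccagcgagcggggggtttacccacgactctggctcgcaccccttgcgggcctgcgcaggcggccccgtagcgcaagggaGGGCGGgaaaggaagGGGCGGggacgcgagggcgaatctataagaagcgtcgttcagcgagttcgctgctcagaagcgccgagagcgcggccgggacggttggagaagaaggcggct
HEXIM1: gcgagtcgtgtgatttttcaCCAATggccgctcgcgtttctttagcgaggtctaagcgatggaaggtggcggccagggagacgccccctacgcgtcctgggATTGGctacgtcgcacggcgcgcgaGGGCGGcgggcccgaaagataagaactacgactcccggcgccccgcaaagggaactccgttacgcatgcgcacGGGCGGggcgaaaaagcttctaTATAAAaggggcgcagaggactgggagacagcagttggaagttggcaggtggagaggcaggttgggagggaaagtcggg
H2AX: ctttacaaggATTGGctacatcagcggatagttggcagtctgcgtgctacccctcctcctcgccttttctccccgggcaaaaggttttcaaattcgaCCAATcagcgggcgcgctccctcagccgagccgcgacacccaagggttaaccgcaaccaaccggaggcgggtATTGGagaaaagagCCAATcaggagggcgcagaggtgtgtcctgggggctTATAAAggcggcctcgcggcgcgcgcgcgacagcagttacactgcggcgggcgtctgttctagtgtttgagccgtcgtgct
BTBD10: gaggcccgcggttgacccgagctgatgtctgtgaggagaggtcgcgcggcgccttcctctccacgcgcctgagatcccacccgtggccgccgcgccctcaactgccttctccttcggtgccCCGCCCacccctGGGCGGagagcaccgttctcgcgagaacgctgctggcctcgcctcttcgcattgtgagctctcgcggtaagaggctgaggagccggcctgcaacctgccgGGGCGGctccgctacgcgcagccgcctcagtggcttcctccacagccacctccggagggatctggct
KDM4A: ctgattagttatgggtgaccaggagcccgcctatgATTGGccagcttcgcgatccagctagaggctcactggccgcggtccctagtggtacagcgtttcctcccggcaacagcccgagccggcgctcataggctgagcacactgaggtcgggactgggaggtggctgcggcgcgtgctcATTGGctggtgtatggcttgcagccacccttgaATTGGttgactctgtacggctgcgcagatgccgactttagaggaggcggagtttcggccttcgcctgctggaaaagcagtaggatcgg
The TATA box of HEXIM1 began 29 bases and that of H2AX 31 bases before the start. POLR2A, BTBD10 and KDM4A had none of these letters for a TATA box in the window.

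The Ser5P lists were longer than the Pol II lists and spread further over genes. Ser5P replicates 1 and 2 held 17784 and 11782 peaks, and Pol II replicates 1, 2 and 3 held 710, 3229 and 2028. The shorter Ser5P list was thus longer than the longest Pol II list, with means of 14783 ± 4244 (SD, n = 2) against 1989 ± 1260 peaks (SD, n = 3), an 8.67-fold difference of geometric means (exact two-sided permutation test over lists, p = 0.1). Ser5P peaks covered 19.5 and 12.3 Mb, and Pol II peaks covered 0.433, 2.33 and 1.28 Mb (14.2-fold, exact permutation p = 0.1). With 2 lists against 3 there are 10 ways to label the lists, so 0.1 is the smallest p this design allows and no difference between these lists could pass 0.05.

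Most Pol II peaks lay at gene starts. Windows of 1 kb on each side of a protein-coding gene start were touched by 61.1%, 61.4% and 69.1% of the peaks in Pol II replicates 1, 2 and 3, against 31.3% and 39.9% in Ser5P replicates 1 and 2. The groups did not overlap, and their means differed by 28.3 percentage points (exact permutation p = 0.1). Peaks inside genes, away from both ends, made up 41.2% and 32.8% of the Ser5P lists but 9.01%, 13.3% and 7.0% of the Pol II lists. Peaks at gene 3′ ends made up 6.19% and 5.27% of the Ser5P lists and 2.11%, 1.92% and 1.48% of the Pol II lists. The groups were again separate for both positions (exact permutation p = 0.1 each). Shares far from genes overlapped, at 14.9% and 14.6% for Ser5P and between 10.3% and 17.6% for Pol II (exact permutation p = 0.7). The remaining peaks lay at an end of a gene for which the promoter table gives no strand.

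**Figure D1:**
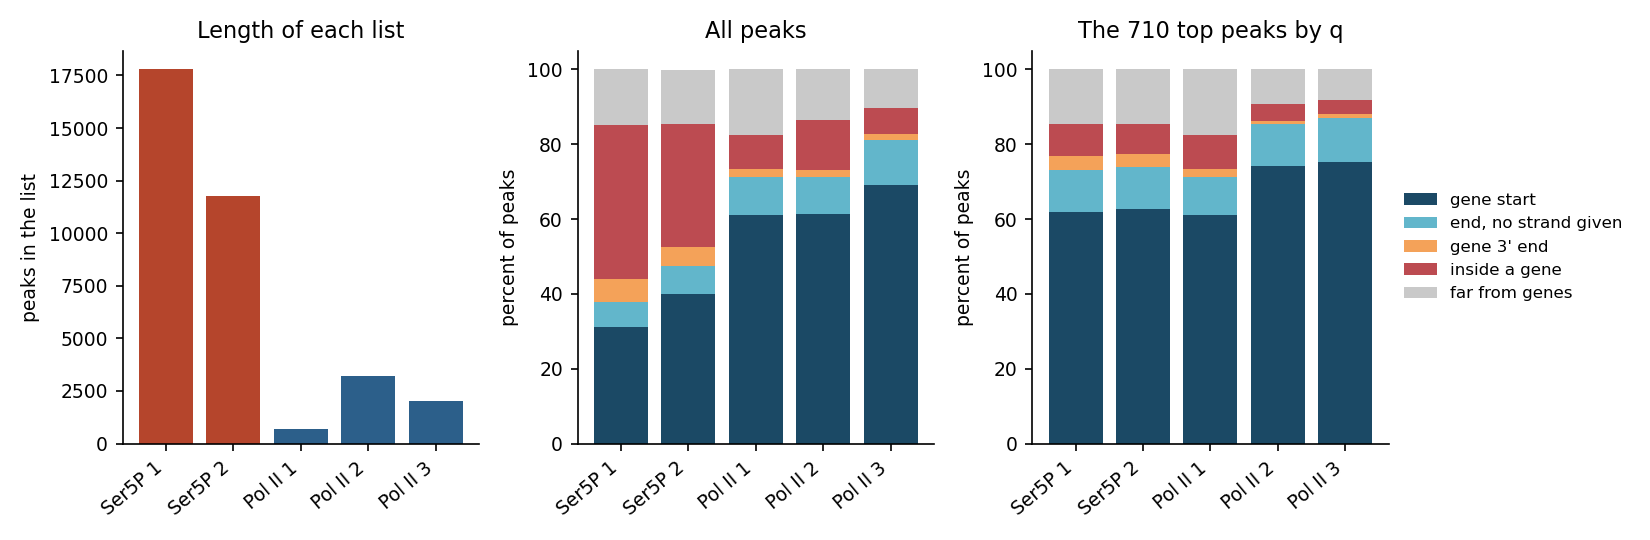
Number of peaks in each of the 5 lists (left) and percent of peaks at each position class, for all peaks (middle) and for the 710 top peaks of each list by q (right). The Ser5P lists are longer, and their smaller share at gene starts in the middle panel narrows to 61.8% and 62.7% against 61.1% to 75.4% for Pol II in the right panel.

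The differences in position were smaller at equal list length. When only the 710 best peaks by q were taken from every list, the length of the shortest list, gene starts held 61.8% and 62.7% of Ser5P peaks and 61.1%, 74.1% and 75.4% of Pol II peaks. The groups then overlapped, and the difference in means shrank from 28.3 to 7.93 points (exact permutation p = 0.4). The difference inside genes shrank from 27.2 to 2.61 points (exact permutation p = 0.4). The overlap came from Pol II replicate 1, whose 710 peaks are its whole list, down to a −log10 q of 1.33. With replicates 2 and 3 alone, a comparison chosen once values were known, the differences were 12.5 points at starts and 4.23 points inside genes and the groups stayed apart (exact permutation p = 0.333, the smallest that 2 lists against 2 allow). At 3′ ends the groups stayed apart, at 3.8% and 3.38% for Ser5P against 2.11%, 0.986% and 1.13% for Pol II. The width contrast grew: the median Ser5P peak among these was 3508 and 2694 bp wide, and the median Pol II peak 461.5, 793 and 620.5 bp (5.04-fold, exact permutation p = 0.1), where over whole lists the medians were 664 and 673 bp against 461.5, 536 and 504 bp.

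Nearly all Pol II peaks lay on Ser5P peaks, while most Ser5P peaks had no Pol II peak. A Ser5P peak of either list was overlapped by 98.2%, 96.2% and 97.8% of the peaks in Pol II replicates 1, 2 and 3. In the other direction, 17.3% and 25.3% of the peaks in Ser5P replicates 1 and 2 overlapped a Pol II peak of any list. The imbalance was not present at equal list length. With 710 top peaks from each list, 58.2% to 68.0% of Pol II peaks overlapped a Ser5P peak and 54.9% to 62.4% of Ser5P peaks overlapped a Pol II peak. In the same reduced lists, Pol II lists shared 50.3% to 67.6% of their peaks with each other, and the Ser5P lists shared 79.0% and 81.0%. Over all 3 Pol II lists, the ranges across forms and between Pol II lists were thus about the same. The lower shares between Pol II lists all came from pairs with replicate 1. Replicates 2 and 3 shared 66.2% and 67.6% of their peaks with each other, against 58.2% to 65.2% with a Ser5P list. The Ser5P peaks were also wider, covering 3.18 and 2.43 Mb against 0.433, 0.773 and 0.558 Mb for Pol II replicates 1, 2 and 3.

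Whether a Ser5P peak had Pol II followed its own rank. In the strongest 10% of Ser5P replicate 1, 30.4%, 75.8% and 54.5% of peaks overlapped a peak of Pol II replicates 1, 2 and 3. In the next 10% these shares were 2.53%, 33.4% and 20.2%, and in the weakest 10% they were 0%, 0.619% and 0.675%. Ser5P replicate 2 gave the same order, from 40.5%, 84.3% and 68.7% in its strongest 10% to 0.340%, 2.29% and 0.764% in its weakest. Peaks wider than 5 kb overlapped any Pol II peak in 76.1% and 84.0% of cases, and peaks under 1 kb in 7.76% and 14.3%. Width and rank go together in these lists.

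**Figure D2:**
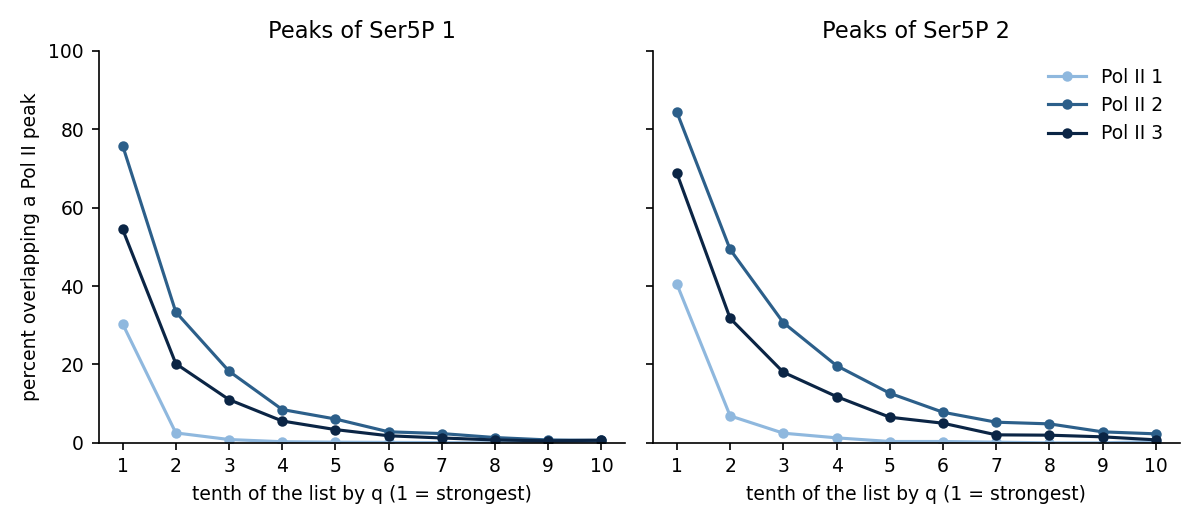
Percent of Ser5P peaks that overlap a peak of each Pol II list, by position in the Ser5P list ordered by q, in steps of 10% of its peaks, for Ser5P replicates 1 (left) and 2 (right). Pol II peaks are found in 30.4% to 84.3% of peaks in the strongest 10% and in at most 2.29% in the weakest.

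Among Ser5P peaks of similar rank, those at gene starts had Pol II more often than those inside genes or at 3′ ends. Within the strongest 10% of Ser5P replicate 1, Pol II peaks of replicates 1, 2 and 3 were found at 36.3%, 85.3% and 69.0% of the peaks at gene starts. Inside genes they were found at 9.46%, 47.3% and 17.1%, and at 3′ ends at 14.3%, 44.3% and 28.6%. The start peaks of that set had a median fold enrichment of 13, the inside peaks 10.3 and the 3′ end peaks 11.5, so rank was close but not equal. Far peaks lay closer to starts: in the strongest 10% of Ser5P replicate 2, any Pol II peak was found at 84.7% of far peaks and 93% of start peaks, and in replicate 1 at 70.1% and 89.2%. In the next 10%, with median folds of 7.81, 7.05 and 7.10, any Pol II peak was found at 55.5% of start peaks, 14.2% of inside peaks and 7.14% of 3′ end peaks. Ser5P replicate 2 gave 67.2%, 28.4% and 17.8% for the same comparison.

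Merging the peaks of the 5 lists gave 19983 regions. A form was called found in a region when at least 2 of its lists had a peak there, and absent when none had. Both forms were found in 1443 regions (7.22%), Ser5P alone in 5409 (27.1%) and Pol II alone in 4 (0.02%). The other 13127 regions were undecided, and 9007 of them were held by Ser5P replicate 1 alone. The count for both forms rested on Pol II replicates 2 and 3: with either left out, so that both remaining Pol II lists had to agree, it was 516 or 576. The count for Ser5P alone rose to 14705 without Ser5P replicate 2. Asking for all 5 lists left 503 regions. With 710 top peaks from each list the order of the single-form classes turned, with 75 regions of Ser5P alone and 135 of Pol II alone beside 390 of both. The rule is uneven there: Pol II alone asks for 2 of 3 lists, and Ser5P alone for both of its lists. Any of the 3 Pol II lists can also exclude Ser5P alone. This turn therefore cannot say which form more often stands alone. Regions with both forms had a median width of 2208 bp and those with Ser5P alone 1111 bp.

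Of the 8306 regions that both Ser5P lists held, the share with at least 2 Pol II lists depended on where they lay. It was 26.4% of 4056 regions at gene starts, 22.6% of 743 at ends without strand, 11.6% of 1111 far from protein-coding genes, 4.47% of 447 at 3′ ends and 2.93% of 1949 inside genes. Gene starts made up 74.1% of the regions with both forms and 37.4% of those with Ser5P alone. Regions inside genes made up 3.95% and 32.5%.

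Start regions at the head of all 5 lists belonged to genes of varied function. Ranked by mean place over the 5 lists, the first was the shared start of POLR2A, ZBTB4 and SLC35G6 (chr17:7483488-7488243). It had fold enrichments of 48.1 and 41.7 in Ser5P replicates 1 and 2 and of 21.4, 37.4 and 36.2 in Pol II replicates 1, 2 and 3. The next was the divergent start of CDC25C, a phosphatase that drives entry into mitosis, and FAM53C, with 45.6 and 32.2 for Ser5P and 37.3, 56.5 and 45.7 for Pol II. CDC25C has further listed promoters (chr5:138331828-138332127 and chr5:138331755-138332054), and no region of these lists lay there. ING1, a reader of histone methylation, had 38.2 and 28.9 for Ser5P and 28.0, 38.8 and 28.8 for Pol II. TOB1, an antiproliferative regulator of mRNA decay, had 72.2 and 71.7 for Ser5P and 30.8, 47.3 and 44.1 for Pol II. PFKFB3, a regulator of glycolysis, had 43.7 and 39.3 for Ser5P and 31.4, 59.0 and 50.7 for Pol II. SRSF7, a splicing factor, had 35.4 and 61.9 for Ser5P and 18.0, 32.1 and 45.3 for Pol II. The other 4 of the 10 leading start regions lay at RAB26 and SNHG19, MARCKSL1, ZCWPW1 and MEPCE, and MKNK2. Folds are the authors' and were not scaled between lists, so they order peaks within a list and do not compare Ser5P with Pol II. ChIP peaks also carry no strand, so a peak on a shared start cannot be given to one of its genes.

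Away from protein-coding starts, some of the leading regions with both forms lay on genes for noncoding RNAs. Of the 5 leading regions far from protein-coding genes, 3 covered RNU5E-1, a spliceosomal U5 RNA gene, MALAT1, a nuclear long noncoding RNA, and TERC, the RNA template of telomerase. MALAT1 had folds of 78.8 and 46.8 in the Ser5P lists and of 17, 34.3 and 18.0 in the Pol II lists. TERC had 27.9 and 32.0 for Ser5P and 10.5, 19.4 and 23.8 for Pol II. A long noncoding RNA gene lay within 1 kb of 47.3% of the 129 far regions with both forms and of 36.7% of the 823 with Ser5P alone. The far regions with both forms were also wider, with a median of 3184 bp against 1156 bp. Small RNA genes were rare there: snRNA genes lay within 1 kb of 5 of the 129 and snoRNA genes within 1 kb of 4. No annotated gene of the types counted lay within 1 kb of 58. The other leading far regions were 1 on an snRNA gene and 1 (chr17:43315553-43318208) on no annotated gene. Only 20 regions with both forms lay at 3′ ends. The 5 leading ones overlapped the snoRNA hosts SNHG12, SNHG25 and SNHG8, an annotated snRNA at the end of TEX14, and the end of VMP1 where MIR21 lies. These 3′ end regions were picked after their values were seen.

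Ser5P peaks without any Pol II peak were strongest at the start of H2AX. Its folds were 26.5 and 22.5 in Ser5P replicates 1 and 2, and no Pol II list held a peak there. After these came the divergent start of PSMG1 and BRWD1 (14.2 and 13.6), LCP1, which encodes the actin bundler L-plastin of blood cells (8.54 and 11.3), and H1-10, a replication-independent linker histone (14.6 and 10.9). AMD1, a decarboxylase of polyamine synthesis, had folds of 16.5 and 12.7. BIRC2, an inhibitor of apoptosis, had 11.9 and 13.8, and PTBP1, a repressor of splicing, had 14.7 and 12.3. All of these folds were below those of the 6 starts with both forms named above. These start regions were chosen by merged region after values were seen, since 25 of the 2638 genes with Ser5P alone in the 1 kb window touched a broad Ser5P peak that held Pol II further along. IER2, an immediate-early gene, was one: its window had Ser5P peaks of 42.9-fold and 57.3-fold and no Pol II peak, but Pol II peaks lay in the same merged region. STX10, BBC3, PDIA3, KDM6B, FAM83E and NAA10, also among the 10 leading genes by the window, likewise had both forms by merged region, while SERPINA9 became undecided and H2AX kept Ser5P alone.

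Regions with Ser5P alone also lay inside genes and at 3′ ends. The leading inside region lay in ST6GAL1, a sialyltransferase that makes the ligand of CD22, with folds of 16.3 and 11.2. Regions inside PTPRC, which encodes the leukocyte phosphatase CD45 (10.9 and 10.3), and P2RY8, a receptor that confines germinal-centre B cells (8.08 and 11.2), followed behind BICC1 (15.2 and 12.6), and NELL2 (5.68 and 9.76) came next. At 3′ ends the leading regions lay at POU2F2, a B-cell octamer factor (11.8 and 14.6), EIF4A2 (15.3 and 12.8), RPL10 (11.9 and 12.0) and MEF2B, a germinal-centre factor (10.8 and 12.5). Most Ser5P-alone regions at 3′ ends also had Ser2P peaks: 94.3% and 93.5% of the 401 in the 2 DMSO Ser2P lists. The matching shares were 82.6% and 68.3% at gene starts, 69.0% and 66.2% inside genes and 55.8% and 48.6% far from genes. Far from protein-coding genes, the leading Ser5P-alone region (chr14:105582595-105583339) had folds of 13.4 and 15.4 and overlapped no annotated gene. The nearest annotation was IGH, the immunoglobulin heavy-chain locus, 3097 bp away. The Ser2P lists held 28951 and 16593 peaks, more in each case than the Ser5P list of the same number.

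Pol II peaks without Ser5P were few and mostly weak. There were 175 such regions, of which 171 were held by 1 Pol II list, 4 by 2 lists and 0 by all 3. In Pol II replicates 1, 2 and 3 these peaks had median folds of 4.62, 4.24 and 4.28, against 6.23, 5.71 and 6.06 for the peaks on Ser5P. The 4 regions held by 2 lists included those at DBR1, at BTBD10 and between AP3D1 and DOT1L, and all 4 were held by Pol II replicates 2 and 3 and not by replicate 1. DBR1, the enzyme that debranches intron lariats, stood apart with folds of 15.3 and 15.7 and ranks in the first 4.34% and 5.33% of those lists. Its region was 382 bp wide (chr3:138174612-138174993), and Pol II peaks of 16.3-fold and 16.2-fold were also present in replicate 2 after 2 h and 4 h of CDK-TCIP1. BTBD10 had 5.03 and 4.83, and the AP3D1 and DOT1L region had 5.51 and 4.28. With Ser5P replicate 1 left out the number of such regions rose from 4 to 26, with Ser5P replicate 2 left out it was 9, and with Pol II replicate 2 or 3 left out it was 0.

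At gene starts the summits of both forms sat just downstream of the start. The median summit lay 50 and 49 bp downstream in Ser5P replicates 1 and 2 and 58.5, 63 and 61 bp in Pol II replicates 1, 2 and 3. The groups did not overlap, with a difference of 11.3 bp (exact permutation p = 0.1). Among the 710 top peaks of each list, however, the medians were 54 and 51 bp for Ser5P and 58.5, 52 and 51 bp for Pol II, which overlapped (difference 1.33 bp, exact permutation p = 0.9). With Pol II replicates 2 and 3 alone the Ser5P median was 1 bp further downstream. Summits upstream of the start made up 36.4% of start peaks in each Ser5P list and 22.1%, 30.9% and 29.5% in the Pol II lists, and this order turned among the 710 top peaks. Where a Pol II summit fell inside a Ser5P peak, the 2 summits were typically close: the median distance over the 6 pairs of lists ran from 55 to 106 bp. Between 8.85% and 14.3% of such pairs were more than 1 kb apart. The Pol II peak was the narrower one, with a median of 15.8% to 42.3% of the Ser5P peak's width.

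**Figure D3:**
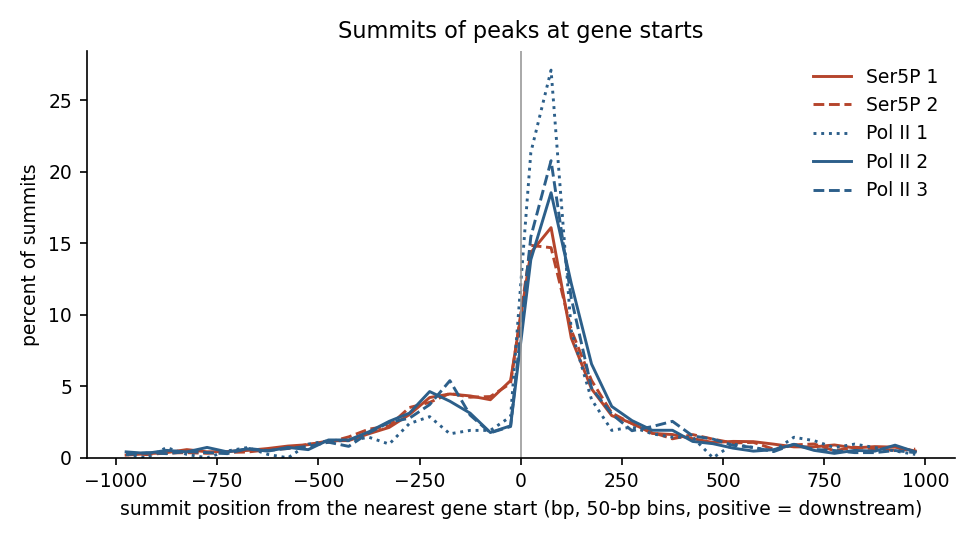
Percent of start-peak summits in 50-bp bins of distance from the nearest protein-coding gene start, for each list (positive is downstream). All 5 lists peak just downstream of the start, with medians from 49 to 63 bp, and a smaller rise lies upstream.

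By gene, Ser5P and Pol II peaks were both found at the starts of 1441 of 20037 protein-coding genes (7.19%), Ser5P alone at 2638 (13.2%), and Pol II alone at 4 (0.02%), among them DBR1 and BTBD10. With 710 top peaks from each list these counts were 384, 55 and 149, so Pol II alone then outnumbered Ser5P alone. The class rule is as uneven here as for regions, so this turn cannot say which form more often stands alone. With all peaks, the start was undecided for 3510 genes and without a peak for 12444. Both Ser5P lists held 5420 genes, and 26.6% of those had both forms. Neighbouring genes shared peaks: 476 of the 1441 and 826 of the 2638 had their best peak in Ser5P replicate 1 in common with another gene. A peak present in few cells and a weak peak present in many cannot be told apart in bulk chromatin.

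Of 15 genes picked for their role in this system or as controls, 11 had both forms. Over all protein-coding genes the share was 7.19%. Of the 13 picked genes held by both Ser5P lists 84.6% had both forms, against 26.6% of all protein-coding genes so held. Controls and system genes are counted together, so the count describes this set and tests nothing. The cytoskeletal gene ACTB had folds of 55.4 and 41.2 in the Ser5P lists and of 12.7, 22.5 and 17.8 in the Pol II lists. MYC, the growth-driving transcription factor, had 10.7 and 17.7 for Ser5P, and Pol II peaks of 13.2 and 12.5 in replicates 2 and 3 but none in replicate 1. CDKN1A, the p21 cell-cycle inhibitor, had a peak in Ser5P replicate 1 alone (4.75), and FOXO3 had no peak.

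Markers of germinal-centre B cells were held more often than those of the other cell types looked at. All 10 germinal-centre B-cell markers had peaks in both Ser5P lists, and 7 of 10 in at least 2 Pol II lists. Other germinal-centre genes were not all held, as given with their list. For T cells 2 of 10 markers were held by both Ser5P lists, for myeloid cells 1 of 10 and for plasma cells 3 of 7. Among all 20037 protein-coding genes, both Ser5P lists held 5420, and 1441 (7.19%) had both forms. The T-cell share was thus not far below that of all genes, and the plasma-cell share was above it. CD3D, CD4, LYZ, MPO, SDC1 and PRDM1 had no peak in any list. The T-cell marker CD3E was called with both forms from peaks at its 3′ end, because the promoter table gives no strand for it and both ends were then used. LCK, the other T-cell marker held, had Ser5P alone, as had the myeloid marker CD68. None of 20 genes of unrelated tissues, such as ALB, INS and GFAP, had a peak.

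Many genes for ribosomal proteins and snoRNA hosts carried both forms. Of 76 cytoplasmic ribosomal protein genes 49 had both forms, 10 had Ser5P alone and 16 were undecided. Of 21 snoRNA host genes 16 had both, among them GAS5, SNHG1 and the nucleolar protein genes NCL and NOP56. Over all protein-coding genes the share with both forms was 7.19%, and over those held by both Ser5P lists 26.6%. Among genes held by both Ser5P lists it was 66.2% for the 74 ribosomal protein genes, below the 72% of 25 immediate-early genes. For the 20 snoRNA hosts it was 80.0%, but only 3 of the 21 hosts are protein-coding, so most lie outside the genes behind the share of 26.6%. These and the other lists were picked knowing that the line transcribes many of their members, so their shares describe the lists and test nothing.

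Immediate-early genes, which respond to signals within minutes, had both forms at 18 of 32 starts and Ser5P alone at 7. Over all protein-coding genes the matching shares were 7.19% and 13.2%. Of the 25 immediate-early genes held by both Ser5P lists 72% had both forms, against 26.6% of all protein-coding genes so held. JUNB had folds of 61.8 and 56.4 in the Ser5P lists and of 27.3, 37.5 and 36.9 in the Pol II lists. FOS had 32.4 and 34.1 for Ser5P and 15.5, 21.6 and 17 for Pol II. DUSP1, a phosphatase that ends MAP kinase signalling, had Ser5P alone, with 6.94 and 8.05, as had EGR2, FOSL1, FOSL2, DUSP6 and NR4A3, and IER2 by the window alone. IER3, ATF3, NR4A1 and KLF2 had no peak in any list.

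Among 40 germinal-centre transcription factor and surface genes, 20 had both forms and 9 had Ser5P alone. Over all protein-coding genes the matching shares were 7.19% and 13.2%. Of the 34 germinal-centre genes held by both Ser5P lists 58.8% had both forms, against 26.6% of all protein-coding genes so held. CXCR4, the chemokine receptor of the dark zone, had 47.8 and 34.5 for Ser5P and 12.9, 21.7 and 18.4 for Pol II. CD74, the invariant chain of antigen presentation, had 50.7 and 30.9 for Ser5P and 5.33, 14.5 and 7.68 for Pol II. PAX5, which fixes B-cell identity, had 16.4 and 14.2 for Ser5P and 5.28, 10.3 and 6.11 for Pol II. BCL6, the repressor that keeps the germinal-centre programme, had 22.1 and 15.2 for Ser5P, and Pol II peaks of 4.57 and 7.66 in replicates 1 and 2 but none in replicate 3. MS4A1, which encodes CD20, had Ser5P alone (7.09 and 10.6), as had EBF1, SPI1 and MEF2C. LMO2, CD38, ETS1 and IRF4 had no peak in any list, and CIITA and CXCR5 had a peak in 1 Ser5P list only.

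The elongation machinery itself split between the classes. Of 46 genes for elongation and pausing factors, 12 had both forms, 11 had Ser5P alone, 15 were undecided and 8 had no peak. Over all protein-coding genes 7.19% had both forms and 13.2% had Ser5P alone. Of the 29 elongation and pausing genes held by both Ser5P lists 41.4% had both forms, against 26.6% of all protein-coding genes so held. HEXIM1, whose promoter is shown above, had folds of 27.3 and 38.0 in the Ser5P lists and of 12.0, 19.5 and 23.1 in the Pol II lists. AFF1, a scaffold of the super elongation complex, had 30.2 and 21.9 for Ser5P and 21.5, 25.7 and 28.6 for Pol II. MEPCE, which caps the 7SK RNA, CCNT2 and CDK13 also had both forms. CDK9 had Ser5P alone (4.74 and 5.70), as had CDK12 (6.92 and 8.41) and NELFE (5.16 and 4.14). Of 38 genes of apoptosis and arrest, 15 had both forms, including BCL2L11 (22.9 and 15.6 for Ser5P, and 6.72, 11.9 and 9.82 for Pol II), and 9 had Ser5P alone, including CDKN1B (6.53 and 4.10). Of 20 heat shock chaperones 9 had both, and of 31 SRSF and HNRNP splicing genes 14 had both. Among genes held by both Ser5P lists, the shares with both forms were 50% for apoptosis and arrest, 56.25% for chaperones and 50% for splicing.

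The order of strength was similar but not the same in the 2 forms. Over the 503 regions that all 5 lists held, Spearman's rho of q between lists was 0.95 for the Ser5P pair, 0.85 to 0.87 for the 3 Pol II pairs and 0.64 to 0.72 for the 6 pairs across forms. These are correlations across regions of a shared genome and chromatin, and lists of 1 form share their antibody. Each region was then placed by its rank in each list, in percent with 0 as the strongest. In 134 regions (26.6%) every Pol II list placed the region higher than any Ser5P list, and in 131 (26%) every Ser5P list placed it higher than any Pol II list. This ranking was added after the data had been seen. With Pol II replicate 1 left out, 1357 regions were held by all lists used, and the counts were 405 and 392.

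Clustered histone genes stood on the Ser5P side. All 7 regions that covered such genes and were held by all 5 lists ranked higher in both Ser5P lists than in any Pol II list, with a median gap of 36.0 percentage points. They cover 13 genes, several from neighbouring clusters, and are not independent of each other. The region of H2AC8 and H2BC8 ranked at 34.6% and 42.7% in the Ser5P lists and at 94.8%, 81.7% and 87.1% in the Pol II lists. That of H2AC6 and H2BC4 ranked at 24.3% and 18.1% in the Ser5P lists and at 69.8%, 47.7% and 82.1% in the Pol II lists. No such gap was seen for immediate-early genes, whose 17 regions had a median gap of 0.13 points in favour of Pol II. Some other lists leaned to Ser5P by less. With negative values for Ser5P, median gaps were -10.8 points for germinal-centre genes, -7.09 for splicing genes and -4.11 for ribosomal protein genes. Elongation factors (5.96), apoptosis and arrest genes (3.63), chaperones (3.16) and snoRNA hosts (8.43, 2 regions) leaned to Pol II. In all, 23 of 46 clustered histone genes had both forms, 3 had Ser5P alone and 16 were undecided.

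Regions inside genes, at 3′ ends or far from genes also leaned to Ser5P. Of 15 inside regions 11 ranked higher in every Ser5P list and 0 in every Pol II list, and of 9 regions at 3′ ends 6 and 0. Positions refer to protein-coding genes. Some of these regions covered noncoding RNA genes, such as SNHG12, SNHG25 and SNHG8 at 3′ ends and RNU5F-1 inside ARMH1. Far from genes the counts were 29 and 3 of 55. At gene starts they were 75 and 114 of 366. The strongest lean to Pol II was at KDM4A, with ranks of 85.4% and 98.6% in Ser5P replicates 1 and 2 and of 1.79%, 1.99% and 0.795% in Pol II replicates 1, 2 and 3. The divergent start of ABHD5 and ANO10 ranked at 91.9% and 90.7% for Ser5P and at 7.36%, 30.6% and 13.1% for Pol II. LSR, a lipoprotein receptor, ranked at 50.5% and 65.4% for Ser5P and at 3.98%, 5.37% and 5.57% for Pol II. These 3 were named after their values were seen. Regions that leaned to Pol II had a median width of 2445 bp and those that leaned to Ser5P 5829 bp.

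**Figure D4:**
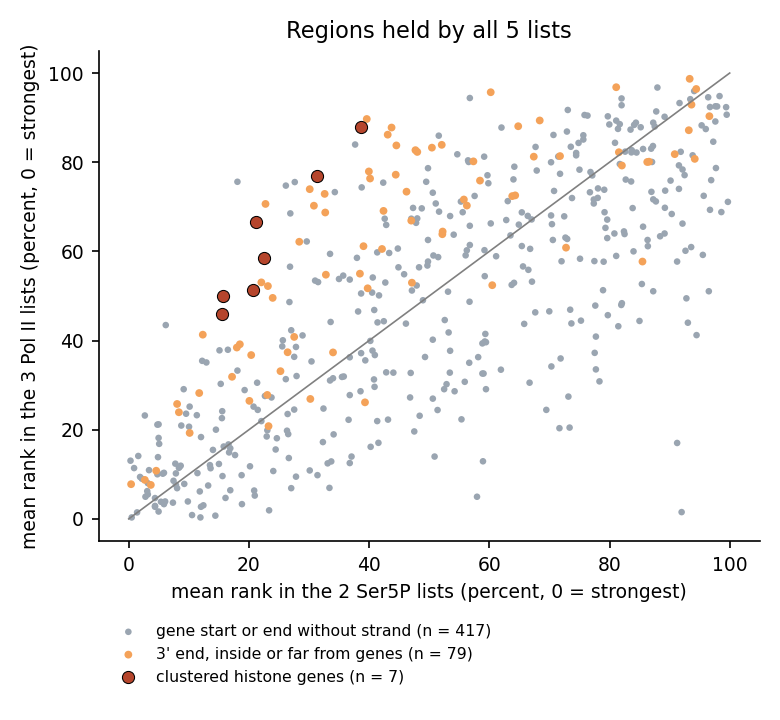
Mean rank over the 2 Ser5P lists (x axis) against mean rank over the 3 Pol II lists (y axis) for the 503 regions held by all 5 lists, in percent with 0 as the strongest, and the line of equal rank. The 7 regions of clustered histone genes lie above the line, where Ser5P ranks higher, and the point near the lower right corner is KDM4A.

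Pol II peaks in lists that had not defined the classes were also more frequent at regions with both forms. Of the 1069 start regions with both forms, 53.6%, 94.2% and 78.1% had a Pol II peak in replicates 1, 2 and 3 after 2 h of CDK-TCIP1, against 3.46%, 29.1% and 14.8% of the 2022 start regions with Ser5P alone. Median Ser5P rank was 8.09% in the first set and 42.1% in the second, so the sets were compared again within ranks of 10% to 30%, a band chosen after the data had been seen. There, 34.4%, 91.1% and 67.9% of 349 regions with both forms had a Pol II peak at 2 h, against 7.16%, 43.1% and 22% of 531 regions with Ser5P alone. At 4 h the shares were 0.287%, 84.8% and 47.3% against 0%, 33.5% and 13.6%. Even within the band the median rank was 17% for both forms and 21.3% for Ser5P alone. Several leading Ser5P-alone starts had Pol II peaks in the treated cells: H2AX had folds of 12.2 and 18.2 in replicates 1 and 2 at 2 h and none in replicate 3, and H1-10 had 9.04 and 11.9 in the same lists. PSMG1 and BRWD1 had none in any treated Pol II list. These single peaks lie in lists of different length, and whether they differ from DMSO was not tested.

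Ser2P and CDK9 lists were set beside these in the same rank band. Ser2P peaks in the 2 DMSO lists were found at 98.3% and 91.1% of start regions with both forms and at 91.7% and 79.8% of those with Ser5P alone. CDK9 peaks from the ab239364 antibody after DMSO were found at 11.7% and 43.6% of regions with both forms and at 5.46% and 29.4% of those with Ser5P alone. For the CST2316S antibody the order turned, with 4.58% and 2.58% against 5.84% and 4.14%. Over all start regions, without the band, that antibody gave 17.9% and 14.7% against 2.97% and 2.52%.

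**Figure D5:**
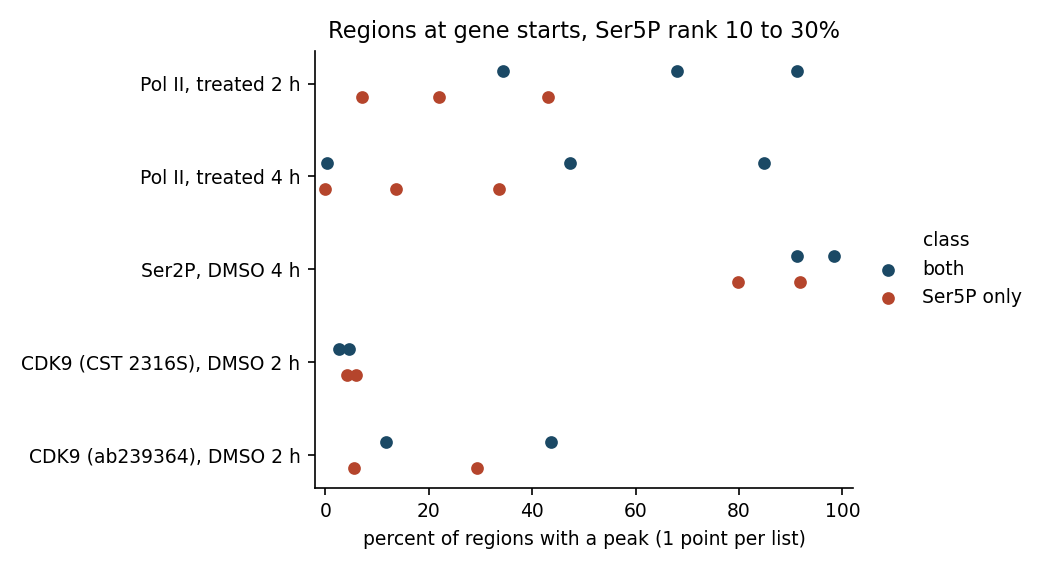
Percent of start regions with a peak in lists that did not define the classes, for regions with both forms (n = 349) and with Ser5P alone (n = 531) at Ser5P ranks of 10% to 30%, 1 point per list. Pol II replicate 2 at 2 h was found at 91.1% against 43.1%, Pol II replicate 1 at 4 h at 0.287% against 0%, and both CST2316S lists were slightly more frequent with Ser5P alone.

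Promoter GC content was similar in both classes, and the shares with a TATA box differed less within a band of Ser5P rank. Of the protein-coding genes, 10394 had 1 listed start and were used. Besides GC content and the count of CpG, the motifs searched on both strands of the 300-base window were the TATA, CCAAT and GC boxes spelled above and the core sites of NRF1 and ETS factors. All were looked at after the classes were known. Over all 10394 promoters these were present in 10.8%, 38.0%, 58.7%, 1.90% and 6.94%. Median GC content was 66.0% in the 700 promoters with both forms and 65.3% in the 1363 with Ser5P alone, against 60.0% in the 6445 without a peak. A TATA box on the gene's strand between 35 and 15 bases before the start was present in 8.14% of promoters with both forms, 1.03% with Ser5P alone and 4.63% of all. Without the clustered histone genes, the first share was 6.59%. Within Ser5P ranks of 10% to 30% the order at this position turned, on few promoters, with 3 of 237 (1.27%) against 8 of 362 (2.21%). Anywhere in the window the order did not turn. There a TATA box was present in 13% with both forms and 3.2% with Ser5P alone, and in 5.91% and 4.14% within the band. The NRF1 core was present in 1.86% with both forms and 4.48% with Ser5P alone. Within the band it was present in 0.422% (1 promoter) and 3.87% (14 promoters). A match is a description of letters, not of a bound site.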

How the data were processed

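The text uses 5 narrowPeak lists of SUDHL5 cells. The submitters' processing notes name Bowtie2, MACS2, Picard, SAMtools, bedtools, deepTools, Trim Galore and FastQC, with the builds hg38 and dm6. The sources used here give no versions, control or blacklist. The authors deposited 1 list per sample, and its fold enrichment (a ratio) is the authors' own value per peak, which is compared only within a list. The −log10 q and −log10 p values were deposited by the authors per peak, and q was used only to rank or filter peaks within a list. Read totals are unknown, so no counting interval is given. Drosophila spike-in chromatin is described in the labels for CDK9 samples only.

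From these files, peaks on unplaced sequences (at most 2 a list) were left out. Peaks were merged when they shared at least 1 bp, and a peak or region took the first class it overlapped in the order gene start (1 kb on each side), gene end without strand, 3′ end, inside and far, so wide peaks reach starts more easily. Starts came from the RefSeq promoter table and, added after values were seen, from gene ends (GRCh38.p14, the assembly of the hg38 build); 15842 of 20037 protein-coding genes had a strand, and for the others both ends were used. A form was found with at least 2 lists. Shares and lengths were compared by exact two-sided permutation over lists (lengths and widths as log2). Named genes are 15 fixed genes, the 10 leading genes of each class by mean rank, list members with both forms, and the 5 leading regions inside or far from genes; list members with Ser5P alone or no peak were named after their values were seen. The members and lists were chosen with earlier results of these data known. Rank comparisons, region picks at starts and 3′ ends, the rank band and the promoter letters were added after the data were seen. The scripts were tested on simulated data. Python 3.11.15, numpy 2.4.6 and pandas 2.3.3 were used. Some genes that fall under the naming rule are not reported here.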

Additional observations from a re-analysis of the deposited data

How the results depend on the processing

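Of 85 values of the list measures under alternatives, 81 kept their direction. The 4 that reversed were the median summit distance with 710 peaks from each list and Pol II replicates 2 and 3 alone (1 bp) and 3 values of the Ser5P minus Pol II difference in the share far from genes (0.883 points), which was -0.888 without Pol II replicate 3, -0.888 with the replicate block and -0.601 with a window of 2.5 kb; leaving out single lists gave -0.888 to 2.76. Taking 710 peaks from each list turned 2 further measures, upstream summits (-5.30 points, and -5.15 with Pol II replicates 2 and 3 alone) and ends without strand (0.282 points). It also gave 390 regions with both forms, 75 with Ser5P alone and 135 with Pol II alone, 384, 55 and 149 genes, and mean overlap shares of 63.9% for Pol II peaks and 58.3% for Ser5P peaks; no list length can be compared there. A −log10 q of at least 5 left 3408 regions with Ser5P alone. Asking for every list left 503 regions and 480 genes with both forms and 0 and 0 with Pol II alone. Asking for at least 1 list gave 3111 regions with both, 16697 with Ser5P alone and 175 with Pol II alone, and 2980, 4550 and 63 genes. The summit alone gave 25 genes with Pol II alone, and no other value for regions. A list covering 50% of the region left 171 regions with both, and 50% of the peak covered left 4.11% of Ser5P peaks among Pol II peaks.

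Leaving out single lists gave 516 to 1466 regions with both forms, 5427 to 14705 with Ser5P alone and 0 to 26 with Pol II alone. For genes the ranges were 494 to 1462, 2651 to 4024 and 0 to 25. Without a Pol II list both others had to hold a region, and without a Ser5P list 1 sufficed for that form. Alternatives added after the data were seen gave 1407 genes with both, 2597 with Ser5P alone and 4 with Pol II alone from the promoter table's starts alone, and 1505, 2609 and 4 when a gene took the lists of its merged region.

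The replicate block, with replicates 1 and 2 of each form paired by number, gave a start share difference of -25.7 points and a log2 list length difference of 3.26, with a smallest possible p of 0.5. The labels give the numbers no shared origin. Deviations of same-numbered lists correlated at 0.24 and -0.06 across 503 regions, and those of Ser5P replicate 2 with Pol II replicate 3 at 0.30. With 2 Ser5P lists the deviations of 1 mirror those of the other, so these values cannot decide on pairing. No pairing was assumed. Without known read depth, a missing peak shows only that none was called.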
